A study of Saccharomyces cerevisiae with 12 samples.

Results

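After 2 h with 110 mg/L alachlor, 314 of 5449 measured yeast genes differed from the untreated cultures of the same experiment, most of them by small amounts, and 304 of these lie outside a list of 25 drug efflux genes. The rises included members of siderophore uptake, phosphate supply, sulfur assimilation, vitamin B6 synthesis and carbonyl reduction. Among the falls were members of biotin synthesis, glucose transport, acetaldehyde oxidation, peroxisomes, chaperones and the mitochondrial ribosome. With each array left out in turn, 1 fall each of peroxisomes and chaperones passed every time. None of the 9 of the mitochondrial ribosome did, a list put together after its values were seen. The comparison covers 6 of the 12 arrays of the series, 3 of treated and 3 of untreated cultures, chosen by their labels, and all genes on them.

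All cultures were Saccharomyces cerevisiae BY4741, a haploid strain (mating type a) used in laboratories, which lacks LEU2, URA3 and MET17 and part of HIS3, so these lesions are shared by treated and control cells. Exponential cells at an optical density of 0.25 ± 0.05 were kept with agitation in minimal medium of pH 6.5 at 30 °C, with no alachlor or with 110 mg/L, the dose the labels call LOEC. A separate experiment of the same kind, with its own 3 untreated cultures, used 200 mg/L, labelled IC20. Hence the doses share no controls, and dose and experiment cannot be told apart. The labels call the arrays of a group biological replicates. Nothing more is said of their origin, so p values measure the spread between these samples. RNA came from whole cultures, so a change of RNA per cell and a change in the mix of cells, such as the phases of the cell cycle, cannot be told apart.

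Alachlor is a chloroacetanilide herbicide. In plants this class blocks the elongation of very long-chain fatty acids, and plants and animals detoxify such compounds largely by coupling them to glutathione. Yeast meets foreign hydrophobic compounds with the pleiotropic drug resistance network, in which the zinc cluster factors Pdr1 and Pdr3 switch on ABC exporters and also genes of lipid handling and carbonyl reduction. It balances its nutrients through further dedicated factors, among them Aft1 for iron, Pho4 for phosphate and Met4 for sulfur.

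Marker genes were compared with the genotype of the strain. Values are intensities on a linear scale as the authors deposited them. The a-specific genes MFA1, MFA2 and STE2 read between 15471 and 16315, between 20998 and 21590.3 and between 15341 and 16693, while the alpha-specific MF(ALPHA)1 and STE3 read between 20.9 and 40.7 and between 108 and 145. Another alpha-specific gene, MF(ALPHA)2, read higher, with 251, 194 and 212 on the control arrays and 304, 363 and 377 on the treated arrays. Probe sets of the deleted LEU2, URA3 and MET17 read between 166 and 229, between 11.2 and 47.2 and between 129.9 and 153. The highest of these, 228.8, is used as a floor. Where a group has an array at or under it, a fold is given as a lower bound against the floor, and none is given where both groups lie under it. HIS3, deleted in part, still read between 6948 and 8397. The medians of the 6 arrays lay between 1566.6 and 1608.6. Over the log2 values of the 5449 genes r between replicates was 0.995 to 0.998. The median SD per gene on the log2 scale was 0.056 in the controls and 0.057 with alachlor.

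Of the 314 genes past the test (5.76% of 5449), 212 rose (3.89%) and 102 fell (1.87%). The test is limma's moderated test on log2 values, with Benjamini-Hochberg adjusted p under 0.05 over all genes, and n = 3 arrays per group throughout. These rises make up 67.5% of the calls. After quantile normalization 179 rose and 139 fell (56.3% rises), and after centring each array on its median 168 rose and 152 fell (52.5% rises). The centring moved log2 changes down by a median of 0.028. Among the 314, the median size was 0.31 on the log2 scale, a 1.24-fold change, and the smallest was 0.14, a 1.10-fold change. A size under 0.5 was found for 239 of them (76.1%), 155 higher and 84 lower, and a size under 0.3 for 148 (47.1%). At least 2-fold changes were seen in 14 rising and 5 falling genes, of which 12 and 4 are not drug efflux genes. Of all genes, 4817 (88.4%) changed by under 0.2 in either direction.

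The number of calls depended on single arrays. Without control arrays 1, 2 and 3 in turn, 147, 121 and 311 genes passed, and without treated arrays 1, 2 and 3 in turn, 119, 168 and 220 passed. In all 6 of these fits 108 genes passed (1.98%), 79 higher (1.45%) and 29 lower (0.532%). Such genes are called stable below. Irrespective of the test, the 3 treated arrays lay above the 3 controls in 840 genes (15.4%) and below them in 664 (12.2%). A log2 change above 0 was found in 2861 genes (52.5%) and below 0 in 2588 (47.5%). An unadjusted p under 0.05 in the limma test was found in 1171 of 5449 genes, 703 of them higher. Counts in the lists below are to be read beside these shares and those of the calls, 3.89% higher and 1.87% lower.

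**Figure D1:**
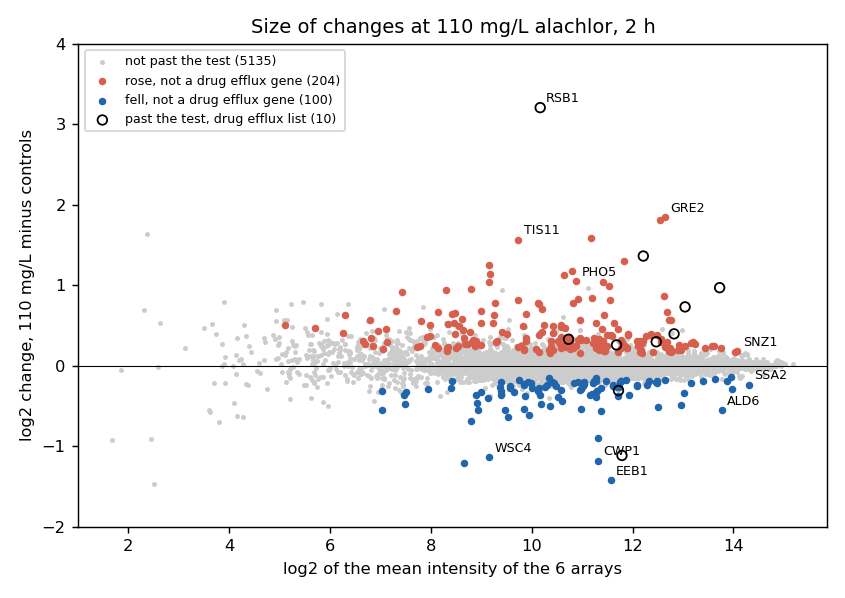
Log2 change at 110 mg/L against the log2 of the mean intensity over the 6 arrays, 1 point per gene (5449 genes). Red points are genes that rose and blue points genes that fell outside the drug efflux list, open circles are the 10 drug efflux genes past the test, and grey points did not pass. Most coloured points lie within 0.5 of 0.

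Outside the efflux pumps the largest rise was in GRE2 (YOL151W), a reductase of methylglyoxal and other carbonyls. Its intensity was 2708, 2729 and 2864 on the control arrays and 10152, 9638 and 10063 on the treated arrays. The groups were far apart, and GRE2 rose 3.60-fold (log2 change 1.85, SE 0.040, adjusted p = 5.53e-06). YGP1, whose product is a secreted glycoprotein of nutrient-limited cells, read 2535, 2516 and 2948 on the control arrays and 9486, 9403 and 9153 on the treated arrays, a 3.51-fold rise (log2 change 1.81, SE 0.067, adjusted p = 3.52e-05). ICT1 (YLR099C), an acyltransferase of lysophosphatidic acid, went from 1159 ± 113 to 3469.8 ± 162 (SD, n = 3), a 3.00-fold rise. CIS1 rose 2.39-fold, YGR035C 2.46-fold and the autophagy receptor gene of the endoplasmic reticulum ATG40 2.18-fold. ATG40 is the neighbour of PDR5 on the chromosome, and PDR5 also rose (log2 change 0.97).

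Of 15 genes of the Pdr network that are not pumps, 7 rose and 0 fell, with a median log2 change of 0.20 against 0.0052 over all genes. GRE2, ICT1, CIS1 and YGR035C are among these 7. PDR16, a phosphatidylinositol transfer protein, read 2201, 2139.6 and 2143 on the control arrays and 3775, 3837 and 3819 on the treated arrays, with no overlap (log2 change 0.82, SE 0.032, adjusted p = 4.32e-05). IPT1, which completes the synthesis of the most complex sphingolipid, rose by a small amount (log2 change 0.20, SE 0.035, adjusted p = 0.0266), and its call was lost in 5 of the 6 fits with 1 array left out. RTA1 passed the test, but its arrays stayed under or near the floor, between 109.7 and 232, and no fold is given. The factors themselves did not pass: PDR1 had a log2 change of 0.03 and PDR3 of 0.27, with adjusted p = 0.715 and 0.178. Treated PDR3 values were 1027, 903 and 1160.0, and the lowest of them lay within the control values of 842, 909 and 806.

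Reductases of carbonyls and quinones, a list of 25 genes put together after their values were seen, held 12 that rose and 1 that fell. Because the list was chosen this way, its count is a description only. After GRE2, the largest rises were those of BDH2, a putative butanediol dehydrogenase, from 359 ± 32.5 to 792 ± 17.5 (log2 change 1.14, SE 0.066, adjusted p = 0.000228), and of FRM2, a nitroreductase-like protein, from 302 ± 2.73 to 586 ± 12.6 (log2 change 0.96, SE 0.033, adjusted p = 3.31e-05). HBN1, the neighbour and close relative of FRM2, read 299, 296 and 342 on the control arrays and 442, 409 and 475 on the treated arrays (log2 change 0.50, SE 0.077, adjusted p = 0.0163). YPL088W, a putative aryl alcohol dehydrogenase, and GCY1, a glycerol dehydrogenase, rose 1.56-fold and 1.43-fold. GRE2, BDH2, FRM2, YPL088W and GCY1 are stable. The old yellow enzyme OYE2 (log2 change 0.25), the NADPH-dependent reductase ARI1 (0.27), YDL124W (0.37) and YML131W (0.48) rose with calls that depended on single arrays. The list counted 5 rises without control array 1 or 2 or treated array 1, 7 without treated array 2 or 3, and 13 without control array 3. AAD14 and AAD4, aryl alcohol dehydrogenases, had log2 changes of 0.088 and 0.17 and did not pass, nor did AAD6, whose arrays lay under the floor. IRC24, a benzil reductase, fell (log2 change -0.20, SE 0.036, adjusted p = 0.0272).

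In the glutathione list of 27 genes, 3 rose and 0 fell, and the median log2 change was 0.016, which turns to -0.012 after median centring. ECM4, a glutathione transferase of the omega class, read 572, 556 and 617 on the control arrays and 807, 769 and 759 on the treated arrays and is stable (log2 change 0.42, SE 0.051, adjusted p = 0.00578). GPX2, a glutathione peroxidase, rose 1.24-fold (log2 change 0.31, SE 0.046, adjusted p = 0.0156), a call lost without control array 2 and without treated array 1 or 2. GTO3 passed with all arrays under the floor. The synthesis genes GSH1 and GSH2 had log2 changes of 0.065 and -0.013, the reductase GLR1 0.004, the conjugate pump YCF1 0.034 and the transferases GTT1 and GTT2 -0.11 and 0.16, none past the test. Of 33 oxidant defence genes 4 rose, FRM2, HBN1, OYE2 and OYE3 (its arrays under the floor), and 0 fell. Among the other members, YAP1, TRR1, TRX2, TSA1, SOD1 and AHP1 lay between -0.031 and 0.091 and did not pass. Of the 33 genes 24 had a log2 change above 0, against 52.5% of all genes. The list median was 0.07, or 0.041 after median centring. Treated arrays lay above the controls in 13 of the 33 and below them in 2, against 15.4% and 12.2% of all genes.

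Siderophore uptake had the largest share of rising members, 72.7%, of the lists with over 10 genes. Yeast makes no siderophores but takes up those of other microbes: cell wall mannoproteins hold them, surface reductases free the iron, and transporters of the Arn family import the loaded molecules. Of 11 genes 8 rose and 0 fell, all 11 had a log2 change above 0, and the median was 0.49. The mannoprotein gene FIT2 (YOR382W) read 1785, 1788 and 1753 on the control arrays and 3595, 3624 and 3733 on the treated arrays (log2 change 1.04, SE 0.033, adjusted p = 2.18e-05). FIT2 thus rose 2.06-fold, while FIT1 and FIT3 did not pass (log2 changes 0.15 and 0.12).

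All 4 Arn transporters rose. ARN1 (YHL040C), for ferrichrome, read 1325, 1340.4 and 1308 on the control arrays and 2393, 2236 and 2226 on the treated arrays (log2 change 0.79, SE 0.040, adjusted p = 0.000152). ENB1 (YOL158C), for enterobactin, read 5158, 4906 and 5158 on the control arrays and 8069.6, 8270.4 and 7851 on the treated arrays (log2 change 0.67, SE 0.039, adjusted p = 0.000228). SIT1 (YEL065W), for ferrioxamine B, read 5720.1, 5478 and 5481 on the control arrays and 8241, 8318 and 8219.8 on the treated arrays (log2 change 0.57, SE 0.034, adjusted p = 0.000234). ARN2 rose least, 1.31-fold (log2 change 0.39, SE 0.044, adjusted p = 0.00447). In none of these transporters did the groups overlap. Of the reductases, FRE4 read 256, 266 and 275 on the control arrays and 383, 377 and 384 on the treated arrays and FRE3 read 362, 380.4 and 382 on the control arrays and 501, 486 and 515 on the treated arrays, 1.43-fold and 1.33-fold rises. FRE6, at the vacuole, rose 1.31-fold, a call lost without control array 2 and without any 1 of the treated arrays. FRE5 stayed under the floor. The count of rises was 8 without control array 1 or 3 and 7 without any other array, so 7 are stable.

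In reductive uptake of iron some members rose and others fell. In this system Fre1 and Fre2 reduce iron, and the oxidase Fet3 with the permease Ftr1 bring it in, with copper supplied to Fet3 by Atx1 and Ccc2. Of 12 genes 4 rose and 2 fell. CCC2, the copper pump, read 1264, 1278 and 1279 on the control arrays and 1834, 1694 and 1821 on the treated arrays (log2 change 0.48, SE 0.041, adjusted p = 0.00135) and is the 1 stable riser. ATX1, SMF3, which empties vacuolar iron, and the regulator AFT1 rose 1.18-fold, 1.23-fold and 1.24-fold. By contrast FTR1 (YER145C) fell, with values of 6152, 6050.4 and 6146 on the control arrays and 5240.3, 5136 and 5453 on the treated arrays (log2 change -0.21, SE 0.036, adjusted p = 0.0238), and so did the low-affinity transporter FET4 (log2 change -0.27, SE 0.040, adjusted p = 0.0144). FET3, with values of 11409, 10779 and 10132 on the control arrays and 12025, 11887 and 12287 on the treated arrays, did not pass (log2 change 0.17, SE 0.050, adjusted p = 0.123), nor did FRE1 and FRE2 (0.22 and 0.01). The list counted 1 rise and no fall without control array 1 or 2, 1 of each without treated array 1, and 2 rises and no fall without treated array 2.

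Inside the cell, of 19 genes of iron handling 6 rose and 1 fell. TIS11 (YLR136C), which binds and destabilizes transcripts of iron-using proteins, read 410.2, 421 and 456 on the control arrays and 1266, 1167 and 1385 on the treated arrays, a 2.96-fold rise (log2 change 1.57, SE 0.073, adjusted p = 0.000105). HMX1, the heme oxygenase that recovers iron from heme, read 289.5, 264 and 277 on the control arrays and 439.9, 456 and 417 on the treated arrays (log2 change 0.66, SE 0.052, adjusted p = 0.000964). COT1, a vacuolar metal transporter, read 3240.0, 3253 and 3280.4 on the control arrays and 3936, 3911 and 3909 on the treated arrays (log2 change 0.27, SE 0.030, adjusted p = 0.00445), a small change against tight replicates. MRS4, the mitochondrial iron carrier, rose too (log2 change 0.25), as did FRA1 (0.31) and AKR1 (0.32), with calls that depended on single arrays. The biotin carrier VHT1 is the member that fell. Counts of rises ran from 3, without control array 2 or treated array 1, to 6. YAH1, the ferredoxin of iron-sulfur cluster assembly, is outside these lists and fell (log2 change -0.23, SE 0.036, adjusted p = 0.0163), a call lost in 4 of the 6 fits. Of 15 zinc genes only the high-affinity transporter ZRT1 passed by limma, with values of 2208, 2211 and 2113 on the control arrays and 1776, 1773 and 1774 on the treated arrays, a fall that is stable (log2 change -0.30, SE 0.034, adjusted p = 0.00476).

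**Figure D2:**
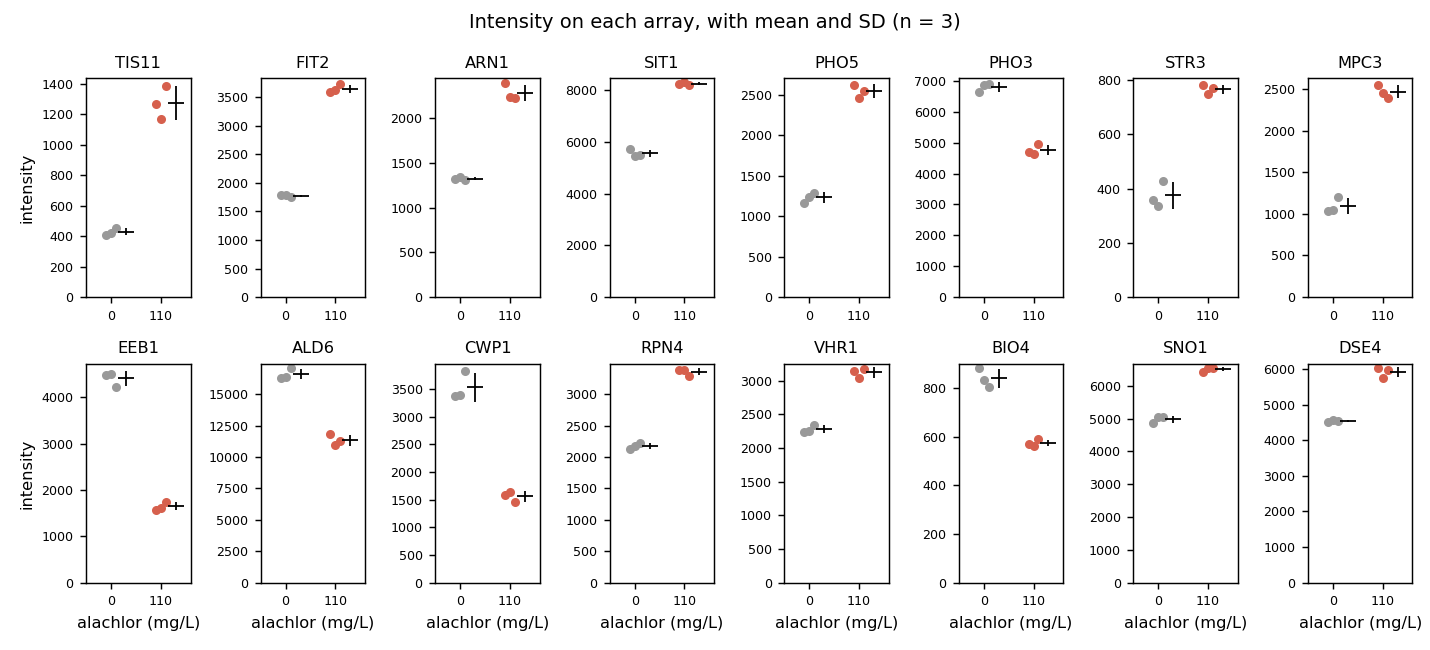
Intensity of 16 named genes on each of the 6 arrays, grey for controls and red for 110 mg/L, on axes that start at 0. The cross beside each group is its mean with SD (n = 3), and the groups overlap in none of the 16.

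Phosphate supply genes passed in 1 direction. When phosphate is short, Pho4 with Pho2 turns on secreted acid phosphatases, high-affinity transporters and the vacuolar polyphosphate synthase. Of 25 genes 8 rose and 0 fell, against 3.89% and 1.87% of all genes. In 21 of the 25 the log2 change was above 0, against 52.5% of all genes, and the list median was 0.16. PHO5 (YBR093C), the main secreted acid phosphatase, read 1166, 1233 and 1291 on the control arrays and 2624, 2456 and 2551 on the treated arrays, a 2.07-fold rise (log2 change 1.05, SE 0.049, adjusted p = 0.000105). PHO89 (YBR296C), a sodium-coupled phosphate transporter, read 2038, 1996 and 1912 on the control arrays and 3905, 3957 and 3964 on the treated arrays (log2 change 0.99, SE 0.037, adjusted p = 3.52e-05). PHO11, whose probe set also matches related genes, rose 1.82-fold and PHM6 1.71-fold. VTC3, a subunit of the polyphosphate synthase, changed by less but with very tight replicates, 4077, 3991 and 4003 on the control arrays and 4994, 5009 and 4977 on the treated arrays (log2 change 0.31, SE 0.030, adjusted p = 0.00258). These 5 are stable. The main transporter PHO84 read 12836, 12656 and 12742 on the control arrays and 15295, 15126 and 14109.8 on the treated arrays, and rose 1.16-fold, and VTC2 and the kinase inhibitor PHO81 had log2 changes of 0.17 and 0.17. Calls of PHO84, VTC2 and PHO81 were lost when some arrays were left out, and the count of rises was then between 5 (without control array 1 or 2 or treated array 1 or 2) and 7. PHO4, PHO2, PHO80 and PHO85 did not pass (0.088, 0.16, 0.065 and 0.077). PHO3, next to PHO5 on the chromosome and regulated by thiamine, went the other way, with 6626, 6879 and 6910.3 on the control arrays and 4698, 4633 and 4947 on the treated arrays (log2 change -0.52, SE 0.040, adjusted p = 0.000948). PIC2, a mitochondrial carrier of copper and phosphate, rose 1.25-fold.

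In sulfur metabolism 10 of 39 genes rose and 2 fell, with a median of 0.055 on the log2 scale. Over all genes 3.89% rose and 1.87% fell. The strain cannot make homocysteine from sulfide, because it lacks MET17. STR3 (YGL184C) and STR2, which link homocysteine and cysteine through cystathionine, both rose: STR3 read 357, 337 and 429 on the control arrays and 781, 748 and 769 on the treated arrays (log2 change 1.04, SE 0.089, adjusted p = 0.00135) and STR2 read 2417, 2533 and 2533 on the control arrays and 3257, 3383 and 3118 on the treated arrays (log2 change 0.38, SE 0.043, adjusted p = 0.00458). The regulator MET28, whose controls lay under the floor, rose at least 1.80-fold. MET2, which feeds homoserine into the pathway, rose at least 1.17-fold, also from under the floor. Genes of sulfate reduction changed by similar small amounts, MET16 by 0.34, MET10 by 0.34 and MET5 by 0.24 on the log2 scale, and MET13 of folate metabolism by 0.35. MET16 shows how small and yet separate these are, with 825, 834 and 860.2 on the control arrays and 1069, 1046 and 1076 on the treated arrays. MET3 and MET14 did not pass (0.055 and 0.22), nor did SUL1, which lay under the floor. The permease MMP1 and the lyase IRC7 fell (log2 changes -0.37 and -0.39). Rises numbered from 7, without control array 2 or treated array 1 or 2, to 11.

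The vitamin B6 pairs SNO1 with SNZ1 and SNO3 with SNZ3 rose, 4 of 20 genes in the list of vitamins B1 and B6. SNO1 read 4853, 5042 and 5036 on the control arrays and 6429, 6548 and 6544 on the treated arrays (log2 change 0.39, SE 0.033, adjusted p = 0.00139), and SNZ1, next to it, 16171, 15902 and 16519.6 on the control arrays and 18318, 18229 and 18446 on the treated arrays (log2 change 0.18, SE 0.032, adjusted p = 0.0299). SNO3 and SNZ3, on probe sets shared with near-identical copies, rose 1.24-fold and 1.19-fold. None of the thiamine synthesis genes passed (THI4 0.25, THI6 0.026, THI20 0.069), and PHO3 was the 1 member that fell. The riboflavin genes RIB5 and RIB4 rose 1.20-fold and 1.18-fold, and BNA4 and BNA6 of nicotinic acid synthesis 1.17-fold and 1.17-fold. These riboflavin and nicotinic acid genes were named after their values were seen, and none of the 4 is stable. In the vitamin B1 and B6 list 2 rises were left without control array 2 or treated array 1 or 2.

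Of 6 biotin genes measured, BIO4 and BIO2 fell and VHR1 rose, and the median log2 change was -0.21. BIO4 (YNR057C), dethiobiotin synthetase, read 881, 830.0 and 805 on the control arrays and 570.5, 563 and 588 on the treated arrays (log2 change -0.55, SE 0.045, adjusted p = 0.00114). BIO2, biotin synthase, read 963, 982 and 1024 on the control arrays and 823, 859 and 845 on the treated arrays (log2 change -0.23, SE 0.038, adjusted p = 0.0213). The carrier VHT1 read 3746, 3805 and 3739 on the control arrays and 2980.1, 3076 and 2695 on the treated arrays (log2 change -0.37, SE 0.054, adjusted p = 0.014). BIO3 had a change of -0.37 that did not pass (adjusted p = 0.0516), and BIO5 was under the floor. VHR1, the factor that activates VHT1 and BIO5 when biotin is low, read 2246, 2249 and 2349 on the control arrays and 3153, 3038 and 3182 on the treated arrays (log2 change 0.45, SE 0.037, adjusted p = 0.00119). BIO4 and VHR1 are stable. Without control array 3 BIO3 passed too (log2 change -0.28, adjusted p = 0.0393), and without any 1 of the other 5 arrays BIO4 was the only biotin synthesis gene that fell.

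**Figure D3:**
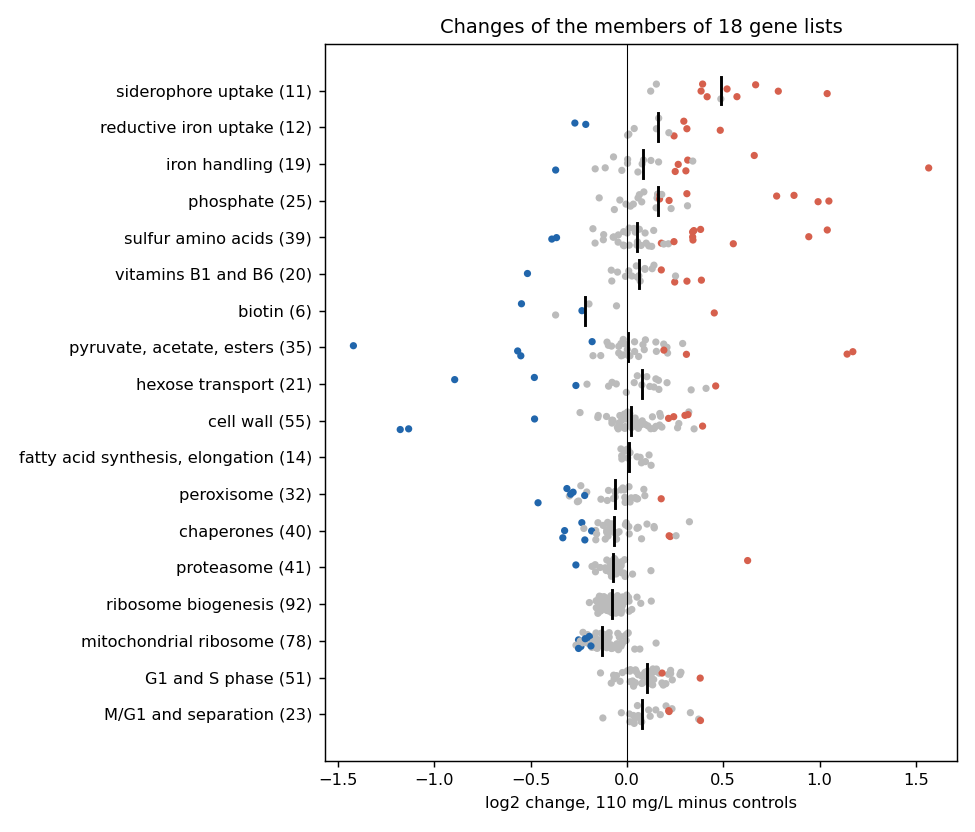
Log2 change of each measured member of 18 gene lists, with the number of members in brackets. Red members rose, blue members fell, grey members did not pass, and the black bar is the median of the list. Siderophore uptake stands to the right of 0 in all 11 members, and the mitochondrial ribosome to the left in 74 of 78.

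Carbon metabolism changed around pyruvate, acetaldehyde and esters. EEB1 (YPL095C), which makes ethyl esters of medium-chain fatty acids, had the largest fall of all genes past the test. It read 4485, 4506 and 4218 on the control arrays and 1575, 1619 and 1746 on the treated arrays (log2 change -1.42, SE 0.052, adjusted p = 3.52e-05). The acetaldehyde dehydrogenases ALD6, cytosolic, and ALD4, mitochondrial, fell from 16595 ± 426 to 11333 ± 423 and from 3176 ± 224 to 2141 ± 86.4 (SD, n = 3). For ALD6, among the brighter genes of the array, this is a log2 change of -0.55. By contrast MPC3, a subunit of the mitochondrial pyruvate carrier, read 1034, 1051 and 1206 on the control arrays and 2552, 2459 and 2396 on the treated arrays (log2 change 1.17, SE 0.066, adjusted p = 0.00021). MPC1, its partner, and MPC2, the alternative subunit, did not pass (-0.042 and 0.061). The acetyl-CoA synthetases ACS1 and ACS2 did not pass either (0.0022 and -0.029). Of the 35 genes in this list 4 rose and 4 fell. MPC3, BDH2, EEB1, ALD6 and ALD4 are stable, and the smaller changes of YAT2, LPD1 and ALD2 are not.

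The transporters HXT2, HXT7 and HXT4, which carry glucose with high or intermediate affinity, fell. HXT2 read 9424, 9213 and 9253 on the control arrays and 6692, 7037 and 6284 on the treated arrays (log2 change -0.48, SE 0.048, adjusted p = 0.00282), and HXT7, on a probe set shared with a near-identical copy, read 3273, 3185 and 3406 on the control arrays and 1736, 1627 and 1959 on the treated arrays (log2 change -0.89, SE 0.072, adjusted p = 0.00109). HXT4 fell by less (log2 change -0.26, SE 0.043, adjusted p = 0.02) and was lost without control array 1 or 2 or treated array 1 or 2. The low-affinity HXT1 and HXT3 did not pass (0.12 and 0.14). MIG2, a repressor made in glucose, rose 1.38-fold, a call lost without treated array 1. The maltose permease MAL31 rose 1.45-fold. Of 22 glycolytic genes 21 had a log2 change above 0, against 52.5% of all genes, with a median of 0.057. After centring 17 of the 22 were above 0 (2209 of all 5449) and the median was 0.028. After quantile normalization 16 were above 0 (2407 of all). The minor isoforms PYK2, TDH1 and GPM2 rose, and none of these 3 is stable. The main isoforms CDC19, TDH3 and GPM1 had changes of 0.038, 0.025 and 0.051. Glycolysis kept 0 rises without control array 1 or 2 or treated array 1 or 2. In the glyoxylate and citrate cycles ICL2, 2-methylisocitrate lyase, rose and is stable (log2 change 0.43, SE 0.046, adjusted p = 0.00373).

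Among cell wall genes 5 of 55 rose and 3 fell, against 3.89% and 1.87% of all genes. CWP1 (YKL096W), a wall mannoprotein, read 3369.5, 3391 and 3833 on the control arrays and 1579, 1646 and 1458 on the treated arrays (log2 change -1.18, SE 0.069, adjusted p = 0.000228). WSC4, of the family of wall stress sensors, read 762, 739 and 852 on the control arrays and 360.4, 327 and 386 on the treated arrays (log2 change -1.13, SE 0.078, adjusted p = 0.000568), and KNH1, a relative of the glucan synthesis gene KRE9, fell to 0.717 of its control level. These 3 falls are stable. Rises were smaller: PST1 1.31-fold, PIR3 1.25-fold, CRH1 1.23-fold, CHS1 (log2 change 0.24) and MID2 (0.22), and PST1 is the stable one among them. Other reporters of the cell wall integrity pathway did not pass, SLT2 with 0.18, RLM1 with 0.13 and FKS1 with -0.013. Rises numbered 1 without treated array 1, 2 without control array 2, 3 without control array 1 or treated array 2, 4 without treated array 3 and 6 without control array 3. Both mannosyltransferase genes MNN1 and MNN5 fell (log2 changes -0.37 and -0.20), the 2 of 38 glycosylation genes past the test, and neither is stable. AGA1, the anchor of a-agglutinin at the wall, read 4455, 4473 and 4264 on the control arrays and 3363, 3449 and 3427 on the treated arrays (log2 change -0.37, SE 0.035, adjusted p = 0.0024), while AGA2, its partner, did not pass (-0.12).

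Of 14 genes of fatty acid synthesis and elongation 0 rose and 0 fell by limma, and 2 were higher at an unadjusted p under 0.05, as were 703 of all genes. The elongases ELO1, ELO2 and ELO3 had log2 changes of 0.13, -0.031 and 0.0052, and the other enzymes of the elongation cycle, IFA38, PHS1 and TSC13, -0.027, -0.0063 and -0.014. ELO3, which makes the longest chains, read 15356, 14749 and 15112 on the control arrays and 15221, 15338 and 14820.3 on the treated arrays. The groups overlap, and the whole list lay between -0.031 and 0.13. FAA2, which activates medium-chain fatty acids for oxidation, read 599, 592 and 556 on the control arrays and 399.5, 392 and 403 on the treated arrays and fell (log2 change -0.55, SE 0.040, adjusted p = 0.000792), the 1 of 6 acyl-CoA synthetases to pass.

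Sphingolipid synthesis had 3 rises and 0 falls among 25 genes. SUR2, which hydroxylates the long-chain base, read 5315, 5427 and 5263 on the control arrays and 6832, 6724 and 6563 on the treated arrays (log2 change 0.33, SE 0.034, adjusted p = 0.00315). LAC1, a ceramide synthase, read 8399.8, 8418 and 8523 on the control arrays and 10498, 10549.6 and 10187 on the treated arrays (log2 change 0.30, SE 0.032, adjusted p = 0.00373). Both are stable, and SUR1, of mannosylated ceramide synthesis, is not (log2 change 0.21, SE 0.041, adjusted p = 0.0386). LAG1, the second ceramide synthase, did not pass (-0.044), nor did the regulators ORM1 and ORM2 (-0.18 and 0.0047). In phospholipid synthesis CHO1, ITR1 and OPI3 fell (log2 changes -0.18, -0.16 and -0.14) and INM1 rose (0.24), and none of these 4 is stable. Falls in this list numbered 0 in all fits with 1 array left out but that without control array 3, which had 2. ERG3, the C-5 sterol desaturase, was the 1 of 29 ergosterol genes past the test (log2 change 0.28, SE 0.040, adjusted p = 0.0133), lost without control array 1 or 2. The azole target ERG11 had 0.061. The flippase gene DNF2, the phosphoinositide regulator SFK1, the phospholipase PLB3 and the sterol ester lipase YEH1 also rose, by 1.22-fold, 1.26-fold, 1.23-fold and 1.28-fold, as genes named after their values were seen, and SFK1 and YEH1 are stable.

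Among 32 peroxisome genes 5 fell and 1 rose. ECI1 (YLR284C), an isomerase of fatty acid oxidation, read 553, 562 and 567 on the control arrays and 412, 420.4 and 390.5 on the treated arrays (log2 change -0.46, SE 0.039, adjusted p = 0.00135) and is stable. The activator PIP2 (log2 change -0.31), the thioesterase TES1 (-0.22), the reductase SPS19 and the import receptor PEX5 (-0.28) fell with calls that were lost in some fits. SPS19 fell at least 1.18-fold, to under the floor. The fatty acid oxidation enzymes POX1, FOX2 and POT1 did not pass. FOX2 had a log2 change of -0.021, and POX1 and POT1 lay under the floor. Falls numbered 1 without control array 1 or treated array 1, and 5 without control array 3.

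Of 40 chaperone genes 5 fell and 2 rose. Of the 6 cytosolic Hsp70 genes in the list 2 fell: SSA1 read 9181, 9015 and 9403 on the control arrays and 7337, 7054 and 7529 on the treated arrays (log2 change -0.33, SE 0.039, adjusted p = 0.00519) and SSA2 21909, 21888 and 22123 on the control arrays and 19202, 18759 and 18110.4 on the treated arrays (log2 change -0.23, SE 0.035, adjusted p = 0.0156). SSA3, SSA4, SSB1 and SSB2 did not pass (-0.054, -0.0035, 0.012 and 0.01). The mitochondrial Hsp70 SSC1, the sorting factor CUR1 and the Hsp90 gene HSC82 fell too (log2 changes -0.22, -0.32 and -0.18). SSA1 is stable, and falls numbered 1 without control array 2 or treated array 1. HSP30 and HSP31 rose by 0.22 and 0.22, and HSP104, HSP26 and HSP42 did not pass (0.053, -0.10 and 0.32).

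RPN4 (YDL020C), the activator of proteasome genes, read 2128, 2169 and 2230.3 on the control arrays and 3394, 3390.1 and 3294 on the treated arrays, a 1.54-fold rise that is stable (log2 change 0.63, SE 0.035, adjusted p = 0.00021). Of the other 40 genes of the proteasome list none rose, ECM29 fell (log2 change -0.26, SE 0.048, adjusted p = 0.0299) with a call kept in 1 of the 6 fits with an array left out, and 38 of the 41 genes had a log2 change below 0. The median was -0.07, and the treated arrays lay below the controls in 19 genes, against 12.2% of all genes. As the median over the list, the 3 controls stood at 0.026, 0.028 and 0.037 and the treated arrays at -0.026, -0.018 and -0.047 around the mean of the 6, without overlap. At 200 mg/L the median was -0.046.

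Of 39 general stress genes 4 rose, YGP1, GCY1, NQM1 and HSP12, and 2 fell, the glycogen phosphorylase GPH1 (log2 change -0.41, SE 0.064, adjusted p = 0.0186) and the stress factor MSN4 (log2 change -0.36, SE 0.070, adjusted p = 0.0365). HSP12, a common reporter of general stress, read 1267, 1233 and 1241 on the control arrays and 1421, 1406 and 1359 on the treated arrays, a 1.12-fold rise that was lost in each of the 6 fits with an array left out. CTT1 and DDR2, of the same response, had changes of 0.20 and 0.16 that did not pass. Without control array 3 this list counted 7 rises, and its 3 control medians were -0.075, -0.10 and 0.056, so that control array 3 lay among the treated arrays at 0.068, 0.017 and 0.016. DIN7 was the 1 of 28 DNA damage genes past the test (log2 change 0.25) and is not stable, and RNR2, RNR3 and RNR4 did not pass (-0.067, -0.14 and 0.023).

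The list of mitochondrial translation genes, put together after its values were seen, lay almost wholly below 0. Of 78 genes 74 had a log2 change below 0, against 47.5% of all genes, 47 had treated arrays below the controls, against 12.2%, and 9 fell. The median was -0.13. Centred and quantile-normalized values gave -0.16 and -0.15. On each array the median over the list stood at 0.077, 0.068 and 0.049 in the controls and at -0.067, -0.051 and -0.066 with alachlor. MRPL17 read 1588, 1558 and 1519 on the control arrays and 1264, 1401 and 1259 on the treated arrays (log2 change -0.25, SE 0.052, adjusted p = 0.0423), MNP1 3364, 3534 and 3233 on the control arrays and 2819.9, 2833 and 2928 on the treated arrays (log2 change -0.24, SE 0.044, adjusted p = 0.0299) and the recycling factor RRF1 867, 798 and 799 on the control arrays and 674, 716 and 679 on the treated arrays (log2 change -0.25, SE 0.048, adjusted p = 0.0348). None of the 9 calls is stable. The falls numbered 7 without control array 3, 1 without treated array 2 and 0 without any 1 of the other 4 arrays, while the median stayed between -0.14 and -0.12.

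Mitochondrial protein import had 27 of 32 genes below 0, a median of -0.074 and 1 fall, PAM18, which was lost in each fit with an array left out. Its array medians were 0.035, 0.038 and 0.039 in the controls and -0.051, -0.037 and -0.043 with alachlor. Of 41 respiratory chain genes the isoform COX5B and the ATPase inhibitor INH1 fell (log2 changes -0.35 and -0.37), and the list median was -0.0022. COX17, which carries copper to the oxidase, and the dicarboxylate carrier DIC1 fell as well (log2 changes -0.32 and -0.29). COX5B and DIC1 are stable, INH1 and COX17 are not.

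No gene of the cytosolic ribosome passed, and 3 were higher at an unadjusted p under 0.05, against 703 of all 5449 genes. The list of 129 measured genes also holds RPP1, which is not a ribosomal protein gene. The median log2 change of the list was 0.0045, which becomes -0.024 after centring. Among 92 ribosome biogenesis genes 85 had a log2 change below 0, against 47.5% of all genes, with a median of -0.076. At an unadjusted p under 0.05, 14 of the 92 were lower and 0 higher, against 1171 of all 5449 genes in either direction, 703 of them higher. However, the control arrays did not stand together here. Their medians were 0.09, 0.064 and -0.039, against -0.034, -0.01 and -0.059 with alachlor, so that control array 3 lay within the treated range. Without that array the median was -0.12 and 5 genes fell, and without any 1 of the others 0 fell. Subunits of RNA polymerases I and III, translation factors and tRNA synthetases held 0 calls by limma in 37, 30 and 21 genes, with 1 gene each at an unadjusted p under 0.05.

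**Figure D4:**
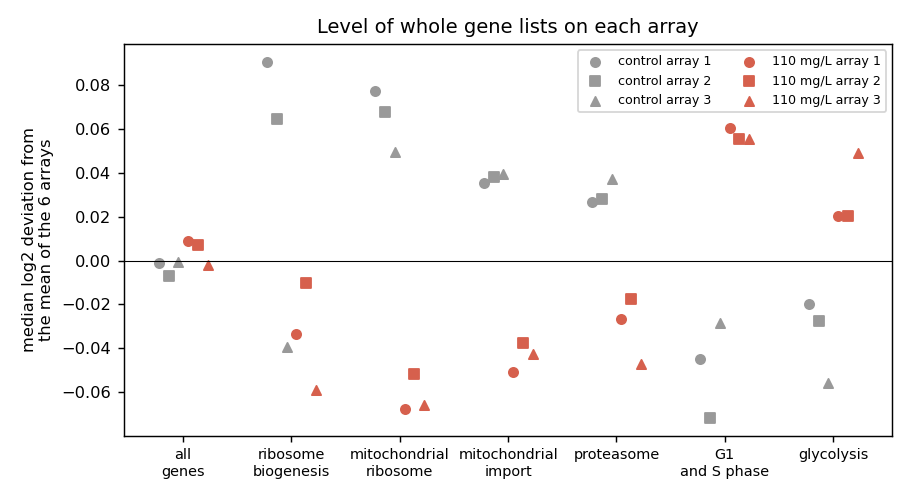
Median over a gene list of the log2 deviation from the mean of the 6 arrays, for all genes and 6 lists, with grey controls, red 110 mg/L arrays and 1 symbol shape per array number. Control array 3 lies among the treated arrays for ribosome biogenesis, while for the mitochondrial ribosome, import, the proteasome, G1 and S phase and glycolysis the groups do not overlap.

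Of 51 cell cycle genes of G1 and S phase 44 had a log2 change above 0, against 52.5% of all genes, with a median of 0.11, and 23 had treated arrays above the controls, against 15.4%. Array medians were -0.045, -0.072 and -0.028 in the controls and 0.06, 0.055 and 0.055 with alachlor. Past the test were CDC6, which loads the replicative helicase, with 978, 986 and 971 on the control arrays and 1343, 1268 and 1213 on the treated arrays (log2 change 0.38, SE 0.045, adjusted p = 0.00533), and RNR1, of ribonucleotide reductase (log2 change 0.18, SE 0.035, adjusted p = 0.0337). CDC6 is stable, and the call of RNR1 was lost whichever array was left out. CLN2, CLN1 and CLB6, cyclins of the same period, did not pass, with log2 changes of 0.28, 0.19 and 0.24. Histone genes, transcribed in S phase, lay between -0.10 and 0.069 with 0 calls by limma and 1, HHO1, lower at an unadjusted p under 0.05.

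Genes of the M to G1 interval and of cell separation had 21 of 23 changes above 0 and 3 rises, against 52.5% and 3.89% of all genes. DSE4, a glucanase made in daughter cells, read 4511, 4553 and 4538 on the control arrays and 6021, 5741 and 5968 on the treated arrays (log2 change 0.38, SE 0.034, adjusted p = 0.00157) and is stable, and RME1 and PRY3 are not. In the G2 and M list HST3 was the 1 of 32 past the test (log2 change 0.24), and it is not stable. At 200 mg/L the medians of the G1 and S list and of the M to G1 list were 0.036 and -0.043, against 0.11 and 0.077 at 110 mg/L, in a separate experiment.

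Of 42 nitrogen genes 4 rose and 3 fell. MEP2, the high-affinity ammonium transporter, read 4629.9, 4563 and 4583 on the control arrays and 6043, 6139.8 and 5869 on the treated arrays (log2 change 0.39, SE 0.033, adjusted p = 0.00135). In arginine use, arginase CAR1 rose 1.22-fold while CAR2, ornithine transaminase, read 1139, 1096 and 1039 on the control arrays and 758, 796 and 710.3 on the treated arrays and fell (log2 change -0.53, SE 0.056, adjusted p = 0.00353), and PUT2, the next step towards glutamate, fell too (log2 change -0.25, SE 0.046, adjusted p = 0.0302). DUR3, which imports urea and polyamines, read 1731, 1847 and 1792 on the control arrays and 1318, 1360.0 and 1304 on the treated arrays (log2 change -0.43, SE 0.039, adjusted p = 0.00173). The factors GAT1 and GLN3 rose by 0.20 and 0.20. MEP2, CAR2 and DUR3 are stable. Rises numbered 1 without control array 1, 2 without control array 2 or treated array 1, and 4 without control array 3. In amino acid synthesis under Gcn4, TRP2 was the 1 of 52 genes past the test, a call lost in each of the 6 fits with an array left out, and GCN4 itself had 0.059. Of these 52 genes 37 had a log2 change above 0, against 52.5% of all genes, with a median of 0.042. After median centring 30 were above 0 (2209 of all 5449) and the median was 0.014. Treated arrays lay above the controls in 18 of the 52 and below them in 3, against 15.4% and 12.2% of all genes. AGP2, a regulator of transport at the plasma membrane, fell (log2 change -0.36, SE 0.064, adjusted p = 0.028), a call lost without any 1 of the control arrays or treated array 1.

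Of the genes with small changes, 12 were taken by the lowest p among those past the test with a size under 0.5 and all 6 values above the floor. They are VHR1, CCC2, MEP2, SNO1, DSE4, FRE3, VTC3 and MET16, which rose, and ECI1, DUR3, AGA1 and YBL029C-A, which fell. All 12 are stable, which the choice by lowest p favours, so this does not speak for small changes in general. Of all 314 calls 108 are stable. The log2 changes of the 12 ran from 0.31 to 0.48 upward and from -0.37 to -0.46 downward. YBL029C-A, of unknown function, read 1613, 1629 and 1730.3 on the control arrays and 1249, 1271 and 1268 on the treated arrays. It neighbours YBL029W, which fell from 567 ± 32.5 to 245 ± 14.7 (log2 change -1.21, SE 0.061, adjusted p = 0.000146).

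Other stable changes fell in none of the lists. MAL31 and TDA1, a kinase of the glucose response, rose 1.45-fold and 1.45-fold. VMR1, a vacuolar ABC transporter, rose 1.63-fold and YHI9 1.48-fold. TMT1, a methyltransferase of trans-aconitate, read 2483, 2511 and 2745 on the control arrays and 3725, 3732 and 3768 on the treated arrays (log2 change 0.54, SE 0.047, adjusted p = 0.0014). RPI1, ICS2, PNS1 and SHC1 fell to 0.657, 0.642, 0.687 and 0.622 of their control levels. SHC1 activates chitin synthase III during sporulation, and RPI1 read 1166, 1130.0 and 1248 on the control arrays and 797, 696 and 841 on the treated arrays.

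The responses at 110 and 200 mg/L were set against each other over all 12 arrays as the difference of the responses, 200 minus 110 mg/L. It passed in 68 of 5449 genes (1.25%), in 54 with the higher value at 200 mg/L (0.991%) and in 14 with the lower (0.257%). The 314 genes called at 110 mg/L had the same sign at 200 mg/L in 307 cases, with 218 larger there. In its own 6 arrays the 200 mg/L comparison called 444 genes, and 187 passed in the same direction at both doses, 59.6% of the calls at 110 mg/L and 42.1% of those at 200 mg/L.

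Some genes called at 110 mg/L were larger at 200 mg/L. CIS1 had a log2 change of 1.25 at 110 and 2.48 at 200 mg/L (difference 1.22, SE 0.075, adjusted p = 9.89e-06). MPC3 had 1.17 and 2.07 (difference 0.90, SE 0.094, adjusted p = 0.000531), and MEP2 0.39 and 1.12 (difference 0.73, SE 0.058, adjusted p = 8.19e-05). Others did not pass at 110 mg/L and were high at 200 mg/L. INO1, which makes inositol phosphate, is the clearest, with 439, 451 and 479 on the control arrays and 467, 459 and 459 on the treated arrays at the lower dose, a log2 change of 0.018, against 2.07 at 200 mg/L (difference 2.06, SE 0.127, adjusted p = 9.89e-06). YLL056C (0.18 and 1.57) and PDR10 (-0.18 and 1.16) belong here, and so does AAD6, with all 6 arrays at the lower dose under the floor and a mean of 692 with 200 mg/L.

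In the iron lists the difference passed for 2 of 12 genes of reductive uptake, FTR1 and FET4, for 1 of 11 of siderophore uptake, FRE4, and for 1 of 19 of iron handling, HMX1. FRE4 rose at 110 mg/L, with a log2 change of 0.52, and had -0.15 at 200 mg/L (difference -0.67, SE 0.079, adjusted p = 0.00115). The mean of FRE4 with 200 mg/L was 223, under the floor, against 248 in its controls, so the size of this difference is uncertain. FTR1 had -0.21 and -0.995 (difference -0.78, SE 0.078, adjusted p = 0.000402), and FET4 -0.27 and -0.81 (difference -0.54, SE 0.092, adjusted p = 0.0157). For siderophore uptake as a list the median was 0.49 at 110 and 0.43 at 200 mg/L. HMX1 went the opposite way from FRE4, with 0.66 and 1.18 (difference 0.52, SE 0.107, adjusted p = 0.0464). No gene of the phosphate, biotin or mitochondrial ribosome lists passed the test of the difference. GAT2, a transcription factor of the GATA family, did not pass at 110 mg/L (0.14) and had -0.75 at 200 mg/L (difference -0.90, SE 0.188, adjusted p = 0.05).

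**Figure D5:**
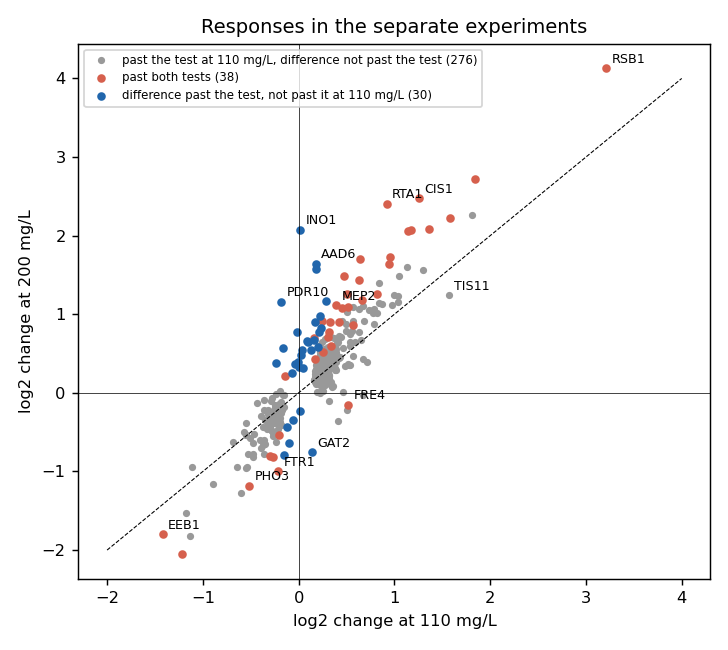
Log2 change at 200 mg/L against that at 110 mg/L, each against the controls of its own experiment, for the 344 genes past the test at 110 mg/L or past the test of the difference. The dashed line marks equal changes. Red points (38) passed both tests, blue points (30) passed the test of the difference only, and grey points (276) passed at 110 mg/L only.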

How the data were processed

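RNA of 6 cultures, 3 untreated and 3 with 110 mg/L alachlor for 2 h, was read on Affymetrix Yeast Genome 2.0 arrays (1 colour, biotin label, per the labels' protocols). The authors deposited linear intensities. The submitters' processing notes name Affymetrix Expression Console, and the probe summary, the normalization and the genome build are not given in the sources used here. Of 34296 values 12 were exactly 1.

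Of 5716 probe sets 5498 had 1 gene symbol, 0 had several and 218 had none. Symbols were matched to RefSeq genes (assembly R64, names, coding lengths and neighbours only), which updated 12. Where a gene had several probe sets (47 genes), only its brightest on average over the 12 arrays was kept, which left out 49. The 5449 genes include 100 on shared and 17 on cross-hybridizing probe sets. Log2 was taken with no pseudocount. The fit was by limma 3.58.1 in R 4.3.3, over the 6 arrays, with 4 residual and 2.49 prior degrees of freedom, two-sided, adjusted over 5449 genes. An exact permutation test of 3 arrays against 3 cannot give p below 0.1 and is not used. The difference of responses came from all 12 arrays with 4 group means. The number of arrays limits the precision. The procedure was tested on simulated data.

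The members, the 48 gene lists and the rule for named genes were chosen with earlier results of these data known, and 3 further lists after these values were seen. The rule named the 15 largest rises and the 15 largest falls that do not overlap, up to 6 changes in a list, 12 small changes of lowest p, the 5 largest differences between doses each way, and all members of lists of up to 15 genes. Genes named beyond this rule were chosen after their values were seen. Of the listed genes 4 were not matched. No sequence or position is printed. Alternatives were quantile normalization, median centring, a filter on dim genes, all probe sets, an offset of 16, an intensity trend with robust moderation, all 12 arrays, the replicate number as a block, stricter thresholds, removal of the trend with coding length and leaving out each array. Numbers are the same in both groups, but the deviations of same-numbered arrays correlated at -0.322, -0.01 and -0.134, so they were not taken as pairs.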

Additional observations from a re-analysis of the deposited data

Results flagged for a closer look

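The response to 110 mg/L differed from that to 200 mg/L, each against its own controls, in 68 of 5449 genes by limma's test of the difference of responses over 12 arrays. Below are the differences, 200 minus 110 mg/L on the log2 scale, of 32 of these genes, and then those of others that the text names. Dose and experiment cannot be told apart in any of them, and their part in the differences was not tested.

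The difference passed in 6 of 25 drug efflux genes and 5 of 15 other Pdr network genes, against 1.25% of all genes. It passed in 10 of 25 reductase genes, a list put together after its values were seen, so that count is a description only. The difference did not pass for PDR5 (0.14), SNQ2 (0.32), YGR035C (0.27) or VMR1 (-0.31). The genes of these kinds that follow passed, with the larger response at 200 mg/L. The differences were 1.34 for PDR10, 1.22 for CIS1, 0.88 for GRE2, 0.72 for YOR1, 0.65 for ICT1 and 0.44 for PDR16. For the reductases they were 1.39 for YLL056C, 0.92 for BDH2, 0.77 for FRM2 and 0.58 for GCY1, and ECM4, a glutathione transferase, had 0.48.

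Metabolic genes with the larger value at 200 mg/L were INO1 (2.06), MPC3 (0.90), MEP2 (0.73), HSP12 (0.53), HMX1 (0.52), GPM2 (0.46), YAT2 (0.40), URA2 (0.27) and MET16 (0.26). OPI3, the last enzyme of phosphatidylcholine synthesis by methylation, had 0.36: it fell at 110 mg/L (-0.14) and had 0.21 at 200 mg/L.

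Lower values at 200 mg/L were those of GAT2 (-0.90), FTR1 (-0.78), FRE4 (-0.67), PHO3 (-0.67), FET4 (-0.54) and EEB1 (-0.38). FRE4 and OPI3 are the genes called at 110 mg/L whose sign was opposite at 200 mg/L with a difference past the test.

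In 5 further genes a group lay at or near the floor of 228.8, so their fitted differences are not read as sizes here. RTA1 (1.49), RSB1 (0.92) and MET28 (0.70) had all 3 control arrays of the 110 mg/L experiment under the floor. AAD6 (1.47) had all 6 arrays of that experiment under it. YBL029W (-0.84) lay above it at 110 mg/L, but its mean with 200 mg/L was 140.

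Of the genes named after their values were seen, YPL088W had a difference of 1.06, YML131W 1.01, AAD4 0.73, GTT2 0.51, YHI9 0.30 and ATG41 0.27, all past the test of the difference.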

How the results depend on the processing

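The 314 calls at 110 mg/L (212 higher, 102 lower) became 318, 320, 342, 321, 344 and 322 with quantile normalization, median centring, without the 20% dimmest genes, with all probe sets, with log2 of the value plus 16 and with the coding length trend removed. With an intensity trend and robust moderation 457 passed (301 and 156), over all 12 arrays 232 (166 and 66), at adjusted p under 0.01 116 (84 and 32), and with at least a 2-fold change 19 (14 and 5). Leaving out each array gave 119 to 311 calls (85 to 219 higher, 34 to 92 lower), and 108 genes (79 and 29) passed in all 6 of these fits, a count added after seeing the data. With the replicate number as a block 129 passed (96 higher and 33 lower) and 21 differences between doses (19 and 2). Deviations of same-numbered arrays correlated at -0.322, -0.01 and -0.134, so the numbers were not taken as pairs. The labels do not say whether they are pairs, and these correlations cannot settle it. The 68 differences between doses (54 and 14) became 70, 65, 84 and 71 with quantile normalization, median centring, the length trend removed and the offset of 16, 32 (29 and 3) at adjusted p under 0.01, and 39 to 68 (34 to 54 higher, 5 to 14 lower) with 1 array left out, the fewest (39) without treated array 1 of 110 mg/L or control array 1 of 200 mg/L. No named gene past the test changed sign in any of these settings. Of the 314 calls, 270 were made in the same direction after median centring and 275 after quantile normalization. The fits without an array have fewer arrays, and the cause of the other changes was not tested. Dim genes are limited by background: 409 genes lay wholly at or under 228.8, and 30 of the 314 had an array of their dimmer group there.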

Other observations

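Neighbouring genes passed the test together in 32 of 5430 measured neighbour pairs, 26 of them in the same direction, with 59 genes in all. With 5.76% of all genes called and 67.5% of the calls rises, some such pairs would be found if position played no part. How many was not worked out, so these counts are a description only. Runs of 3 genes included MET28 (at least 1.80-fold, its controls under the floor) with YAP5 and YIR018C-A (log2 changes 0.78 and 0.82), and YAR066W with YAR068W and PHO11 (log2 changes of the latter 0.84 and 0.87). YAR066W lay wholly under the floor, and its call was lost in 4 of the 6 fits with an array left out. The probe sets of YAR066W and PHO11 also match related genes. YAP5 encodes the factor that answers high iron, and MET28 a regulator of sulfur genes. Others are ICT1 with MIM2 (1.58 and 0.50), GAL3, wholly under the floor, with SNQ2 (0.73), MUP3 with VMR1 (0.34 and 0.71), HAL1 with ICL2 (0.25 and 0.43) and PUT2 with RRF1 (-0.25 and -0.25). Opposite signs were found in 6 pairs, among them PHO3 with PHO5 and PDR12 with SUR1 (-1.11 and 0.21).

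Of the 218 probe sets with no gene symbol 10 rose and 3 fell, with log2 changes from -0.41 to 1.52, and they are not named here. MF(ALPHA)2, an alpha-factor gene that cells of mating type a keep silent, passed the test with values of 251, 194 and 212 on the control arrays and 304, 363 and 377 on the treated arrays, with control values near the floor, and the rise is at least 1.52-fold. The call was lost in 4 of the 6 fits with an array left out, and at 200 mg/L both group means of MF(ALPHA)2 lay under the floor. MF(ALPHA)1 lay between 20.9 and 40.7. The genes of pheromone response PRM4 and PRM5 rose 1.42-fold and 1.24-fold, neither of them stable, and FUS1 and FUS3 did not pass (log2 changes -0.077 and -0.20). Of 24 listed genes of autophagy and vacuolar proteolysis and 18 subunits of the vacuolar ATPase 0 passed by limma. At an unadjusted p under 0.05 there were 4 and 0, against 1171 of all 5449 genes. ATG40 and ATG41, autophagy genes outside that list, rose (log2 changes 1.13 and 0.25), and the call of ATG41 was lost without treated array 1. Seripauperin genes, 13 on mostly cross-hybridizing probe sets, held 0 calls and 3 at an unadjusted p under 0.05, and COS genes 0 and 0 of 9. In nucleotide metabolism the uracil permease FUR4 and URA2 rose 1.21-fold and 1.12-fold, 2 of 36 genes, but URA2 was lost in each of the 6 fits with an array left out and FUR4 in 5 of them. Ion transport and metal homeostasis genes (protons, alkali metals, calcium, magnesium, manganese and copper) held 1 rise of 28, HAL1 (3.57%, against 3.89% of all genes), which was lost in 5 of the 6 fits.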
